A study of Mus musculus with 6 samples.

Results

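The Frizzled genes and the other Wnt receptor genes of the colorectum were examined in colitis mice receiving either berberine or sulfasalazine. The group was defined by gene symbol and holds 10 of the 18268 genes in the deposited table, namely Fzd1, Fzd2, Fzd4, Fzd5, Fzd6, Fzd7, Fzd8, Ror1, Ryk and Lrp6. All 10 were found and all 10 passed the filter on low values, so none is left unaccounted for. The samples came from 6 C57BL/6 mice, which the study describes as adult males with no genetic modification named. Colitis was induced in every mouse by 7 days of DSS (dextran sulfate sodium), which damages the intestinal epithelium. For 6 days, 3 of them also received berberine (BBR), a plant alkaloid, and 3 received sulfasalazine (SASP), an aminosalicylate prodrug used against ulcerative colitis, in each case by gavage. Healthy mice and colitis mice without a drug were not analysed here, so each difference lies between the drugs and has no untreated reference. RNA came from whole tissue, in which fewer cells of a type and less RNA per cell cannot be told apart. The study's text speaks of rectal samples for its BBR sequencing and of colon samples for its SASP sequencing. Whether both groups came from the same segment is not clear, and a difference of segment could not be told apart from the drugs.

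Wnt proteins are secreted signals that keep the stem cells at the base of the colonic crypts dividing, and resident stromal cells are a major source of them. Frizzled proteins are the seven-pass membrane receptors that bind Wnts through a cysteine-rich domain outside the cell, and with the co-receptor Lrp6 they signal through Dishevelled to stabilise beta-catenin. Ror1 and Ryk are single-pass receptors with kinase-like domains that bind Wnts, in particular Wnt5a, and are best known for signals that do not pass through beta-catenin. The study compared the transcriptomes of BBR and SASP mice, with Wnt signalling among the gene groups it looked at, and the receptors are the step at which a cell receives those signals.

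Values are FPKM, that is, fragments per length of transcript and per total of the library, as the authors deposited them. Between 11518 and 12307 genes reached 1 FPKM per mouse, and the depth estimated from the table was 16400000 to 18200000 reads. The labelled tissue held its defining cells, since the summed FPKM of 10 colon epithelial markers was 5607 to 7063 over the 6 mice. BBR mouse 3 stood apart from its group, with correlations across genes of 0.949 and 0.953 with the other BBR mice, which correlated at 0.987 with each other. The values of the receptors without this mouse are given after the main comparison.

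All 10 receptor genes had a log2 fold change above 0 in BBR over SASP mice, against 60.8% of the 12072 tested genes, although Fzd5 turned to -0.011 with median-ratio scaling. The median over the receptors was 0.46 on the log2(FPKM + 1) scale, beside 0.10 over all tested genes. In 7 of the 10, the lowest BBR value exceeded the highest SASP value, which held for 21.3% of all tested genes. These 7 were Fzd2, Fzd4, Fzd6, Fzd8, Ror1, Ryk and Lrp6, and the same 7 had an unadjusted p under 0.05. That level was reached by 31.8% of all tested genes. After Benjamini-Hochberg adjustment over all tested genes in limma, 1 of the 10 passed 0.05, Ror1, where 8.86% of all tested genes passed, 3.82% as higher and 5.04% as lower in BBR mice. A share of 1 in 10 is thus close to the background, and the other 6 with separate groups had adjusted p-values from 0.0607 to 0.125. The study itself displayed Wnt pathway genes that were higher in BBR than in SASP colitis mice. Its text does not say which receptors were among them, so their direction here cannot be taken as independent of that choice.

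**Figure D1:**
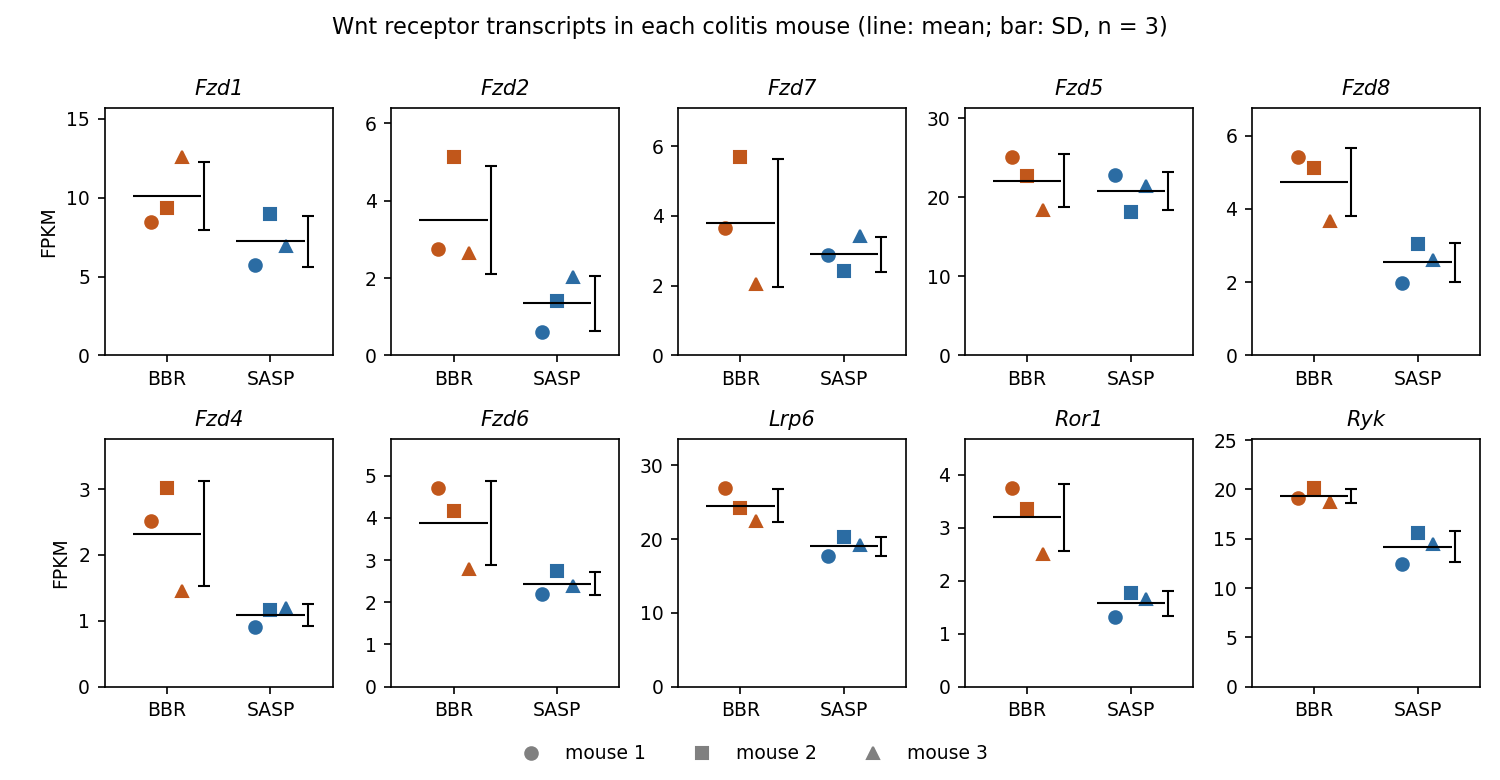
FPKM of the 10 receptor genes in each mouse, with the mean as a line and the SD as a bar (n = 3 per group); each panel has its own axis, which starts at 0. BBR and SASP points are separate in 7 panels and overlap in those of Fzd1, Fzd5 and Fzd7.

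**Figure D2:**
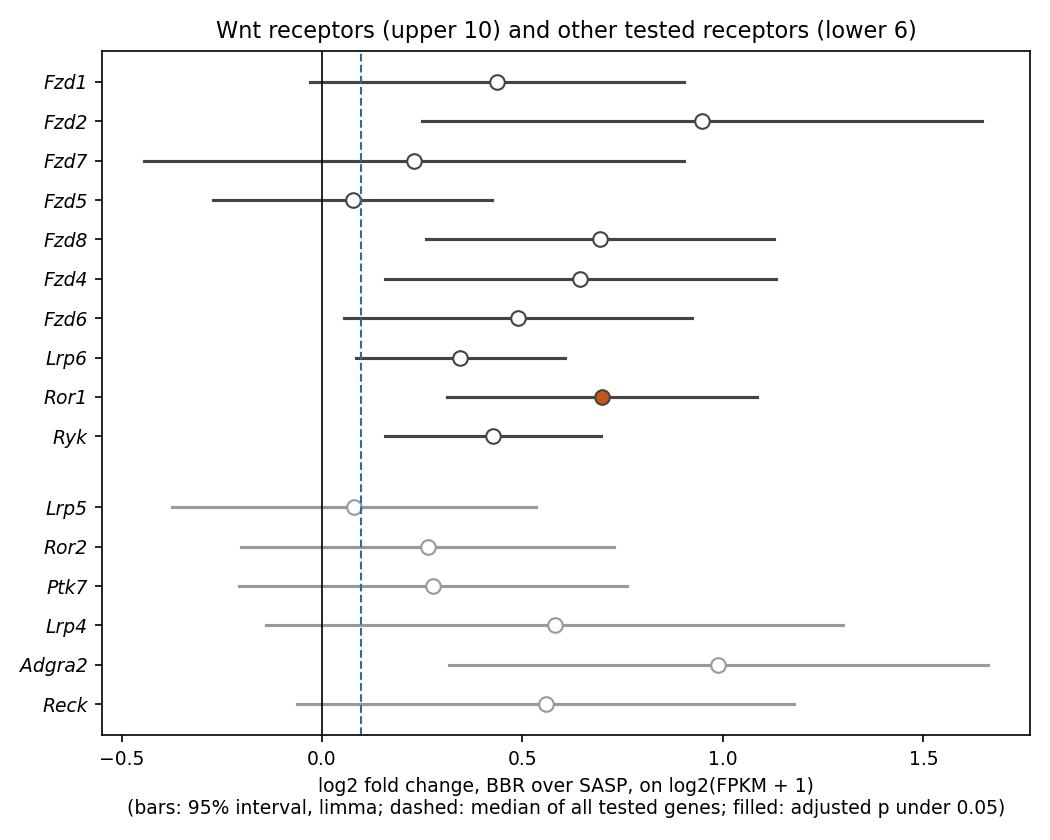
Log2 fold change of BBR over SASP mice for the 10 receptors and for 6 further receptors that passed the filter, with 95% intervals from limma. The dashed line is the median of all tested genes, 0.10, and Ror1 is the gene whose adjusted p passed 0.05.

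Ror1 (Gene ID 26563) encodes a Wnt5a receptor of the receptor tyrosine kinase-like orphan family. It was at 3.74, 3.35 and 2.50 FPKM in BBR mice 1, 2 and 3 and at 1.31, 1.76 and 1.65 FPKM in SASP mice 1, 2 and 3. All BBR values thus exceeded all SASP values, and the smallest gap was that between BBR mouse 3 and SASP mouse 2. The means were 3.20 ± 0.634 and 1.57 ± 0.235 FPKM (SD, n = 3 each), a 2.03-fold ratio. The log2 fold change was 0.70 (SE 0.16, 95% interval 0.31 to 1.09, limma adjusted p = 0.0466). Ror1 lost its call without BBR mouse 1 or 2 or any of the 3 SASP mice, with a smooth muscle or a fibroblast covariate, with a pseudocount of 0.01 and with no filter, and its log2 fold change ranged from 0.47 to 1.01 over all alternatives.

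The promoter of Ror1 is shown because it is the receptor that passed the threshold, and that of Fzd5 because it is the Frizzled gene with the highest level and the smallest difference. Each stretch runs from 250 bases before to 50 bases after the start of the gene, from RefSeq on GRCm38.p6, and 6 of the 10 receptors had an entry. The build named in the submitters' processing notes is mm9, so these positions do not apply to the deposited table. The Ror1 stretch is chr4:100095541-100095840 on the plus strand, and the Fzd5 stretch is chr1:64737701-64738000 on the minus strand. Capitals mark the Sp1 box GGGCGG and the TCF/LEF core CTTTGA on either strand.
Ror1: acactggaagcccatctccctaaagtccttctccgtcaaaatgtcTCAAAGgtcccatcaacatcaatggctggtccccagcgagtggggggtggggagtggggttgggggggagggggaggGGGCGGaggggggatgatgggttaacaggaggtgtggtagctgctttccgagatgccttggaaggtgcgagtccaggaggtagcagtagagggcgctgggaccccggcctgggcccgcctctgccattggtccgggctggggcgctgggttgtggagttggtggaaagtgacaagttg
Fzd5: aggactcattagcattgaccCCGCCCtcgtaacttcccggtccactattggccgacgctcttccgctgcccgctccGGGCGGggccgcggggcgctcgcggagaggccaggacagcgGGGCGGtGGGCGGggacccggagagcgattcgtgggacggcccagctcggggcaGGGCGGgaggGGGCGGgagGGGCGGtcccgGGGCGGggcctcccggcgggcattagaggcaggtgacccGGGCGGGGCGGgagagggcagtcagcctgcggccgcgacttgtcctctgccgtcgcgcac
The Ror1 stretch held 1 Sp1 box and 1 CTTTGA, the latter on the reverse strand and starting at -205. The Fzd5 stretch held 10 Sp1 boxes, which overlap in part, and no CTTTGA. Among the 6 receptor promoters, 5 held GGGCGG, which 35.7% of all 32851 RefSeq promoters hold, and 2, Ror1 and Fzd1, held CTTTGA, which 16% hold. The E-box CACGTG, the site of the Clock and Bmal1 pair, was in 0 of the 6 and in 7.15% of all promoters. The Fzd5 stretch was 75.7% G and C and that of Ror1 62.3%, where the median promoter has 52.7%. A match is only a run of letters, and its absence says nothing about a factor.

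Ryk (Gene ID 20187) encodes a Wnt receptor with a WIF domain and an inactive kinase domain, and had the tightest BBR values of the 10 receptors. It was at 19.1, 20.1 and 18.8 FPKM in BBR mice and at 12.5, 15.6 and 14.5 FPKM in SASP mice. The groups did not overlap, and the coefficient of variation was 3.6% in BBR mice against 11.1% in SASP mice. The log2 fold change was 0.43 (SE 0.11, 95% interval 0.16 to 0.70), and its limma adjusted p of 0.0613 missed the threshold. With quantile normalization it passed, at 0.38.

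Lrp6 (Gene ID 16974) encodes the co-receptor that binds Axin once Wnt and Frizzled have engaged it. Per length it was the most abundant receptor transcript of the set when averaged over all 6 mice, although Fzd5, next in order, overlapped with it. Lrp6 was at 26.9, 24.2 and 22.4 FPKM in BBR mice and at 17.7, 20.3 and 19.2 FPKM in SASP mice, again without overlap. The log2 fold change was 0.35 (SE 0.11, 95% interval 0.08 to 0.61, limma adjusted p = 0.0885). Its paralogue Lrp5 was at 10.3 ± 2.45 and 9.57 ± 1.40 FPKM (SD, n = 3 each), with overlapping groups and a log2 fold change of 0.08 (95% interval -0.38 to 0.53).

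Fzd5 and Fzd8 form a subfamily of Frizzled proteins that act through beta-catenin, and Fzd5 is a main Frizzled of intestinal epithelium. Fzd5 (Gene ID 14367) was at 25.1, 22.8 and 18.4 FPKM in BBR mice and at 22.8, 18.2 and 21.5 FPKM in SASP mice. The groups overlapped, although BBR mouse 1 lay above and SASP mouse 2 below all mice of the other group, and the interval of the log2 fold change of 0.08 ran from -0.27 to 0.42. Fzd8 (Gene ID 14370) was several times lower, at 5.41, 5.11 and 3.68 FPKM in BBR mice and at 1.97, 3.04 and 2.61 FPKM in SASP mice. Every BBR value of Fzd8 exceeded every SASP value, and the means stood in a 1.86-fold ratio. Its log2 fold change was 0.69 (SE 0.18, 95% interval 0.26 to 1.13, limma adjusted p = 0.0607), and its adjusted p fell below 0.05 with median-ratio scaling (log2 fold change 0.62) and with quantile normalization (0.56).

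Fzd1, Fzd2 and Fzd7 form another closely related subfamily, and Fzd7 is known as a receptor of intestinal stem cells. Fzd2 (Gene ID 57265) showed the largest log2 fold change of the 10, 0.95 (SE 0.30, 95% interval 0.25 to 1.65, limma adjusted p = 0.0834). It was at 2.75, 5.12 and 2.65 FPKM in BBR mice and at 0.61, 1.40 and 2.02 FPKM in SASP mice. The groups did not overlap, but the values spread widely within each, with coefficients of variation of 39.9% and 52.6%. Fzd1 (Gene ID 14362) was at 8.47, 9.34 and 12.6 FPKM in BBR mice and at 5.76, 8.95 and 6.95 FPKM in SASP mice. It was the only receptor of the 10 that was highest in BBR mouse 3, and SASP mouse 2 exceeded BBR mouse 1, so its groups overlapped (log2 fold change 0.44, limma adjusted p = 0.177). Fzd7 (Gene ID 14369) was at 3.65, 5.68 and 2.04 FPKM in BBR mice and at 2.89, 2.41 and 3.41 FPKM in SASP mice. BBR mouse 3 had the lowest Fzd7 value of all 6 mice and BBR mouse 2 the highest, and the interval of its log2 fold change of 0.23 ran from -0.44 to 0.90.

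Fzd4, the Frizzled that also binds the non-Wnt ligand Norrin and acts in blood vessels, had the lowest mean of the 10. Fzd4 (Gene ID 14366) was at 2.51, 3.01 and 1.45 FPKM in BBR mice and at 0.90, 1.16 and 1.2 FPKM in SASP mice. The groups were separate, with BBR mouse 3 just above the SASP mice (log2 fold change 0.64, 95% interval 0.16 to 1.13, limma adjusted p = 0.0877). Fzd6, a Frizzled of planar cell polarity, likewise had its lowest values of each group in BBR mouse 3 and SASP mouse 1. Fzd6 (Gene ID 14368) was at 4.70, 4.17 and 2.78 FPKM in BBR mice and at 2.19, 2.73 and 2.39 FPKM in SASP mice, with BBR mouse 3 barely above SASP mouse 2. Its log2 fold change was 0.49 (95% interval 0.05 to 0.92, limma adjusted p = 0.125).

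By mean FPKM over the 6 mice, the receptors ranked Lrp6, Fzd5, Ryk, Fzd1, Fzd8, Fzd7, Fzd6, Fzd2, Ror1 and Fzd4, from 21.8 down to 1.71 FPKM. The ranges of neighbours in this order overlapped over the 6 mice, barely so for Ryk and Fzd1, and the exception was Fzd1 and Fzd8, which were separate. Among the Frizzled genes alone, Fzd5 made up 47.5%, 41.0% and 41.8% of the summed Frizzled FPKM in BBR mice and 61.2%, 47.6% and 53.4% in SASP mice. The groups were separate by a narrow margin, between BBR mouse 1 and SASP mouse 2. Fzd8 took 9.26% ± 0.947 in BBR and 6.58% ± 1.35 in SASP mice, and Fzd1 20.4% ± 6.98 and 18.7% ± 4.21 (SD, n = 3 each). The sum itself was 52.8, 55.5 and 44.1 FPKM in BBR mice and 37.3, 38.1 and 40.3 FPKM in SASP mice.

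**Figure D3:**
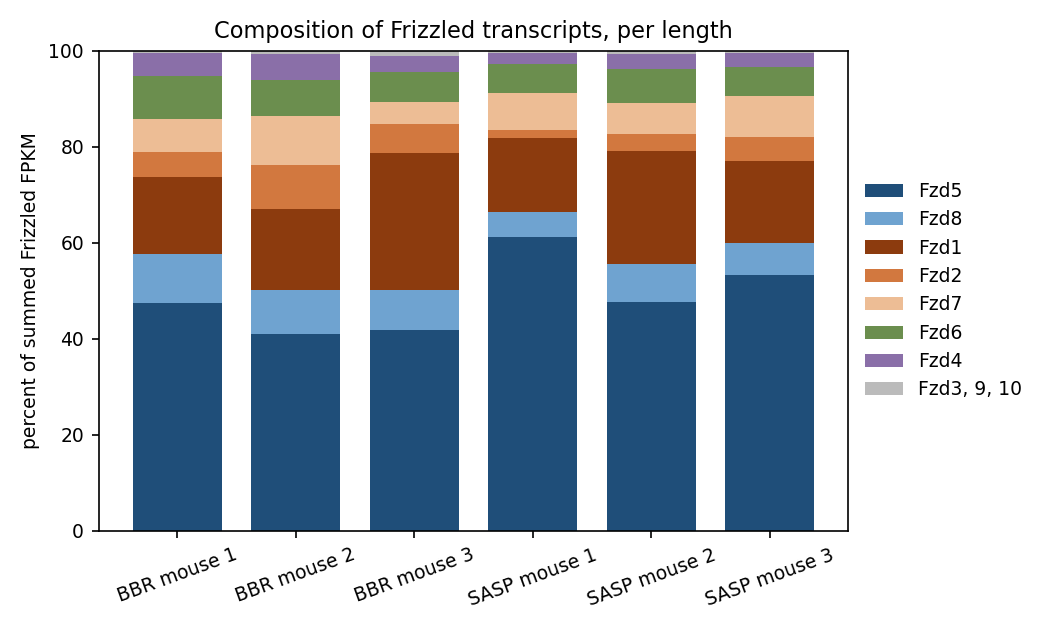
Share of each Frizzled gene in the summed Frizzled FPKM of each mouse, in percent. Fzd5 is the largest part in all 6 mice, from 41.0% to 61.2%, and Fzd3, Fzd9 and Fzd10 are barely visible at the top.

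Ratios of paralogues within a mouse do not depend on the scaling between libraries, and 6 such pairs were compared. Fzd8 over Fzd5 was 0.216, 0.225 and 0.200 in BBR mice and 0.0863, 0.167 and 0.122 in SASP mice. Fzd2 over Fzd7 was 0.753, 0.901 and 1.30 in BBR mice and 0.211, 0.581 and 0.592 in SASP mice. Ror1 over Ror2 was 2.14, 1.16 and 1.33 in BBR mice and 1.12, 1.01 and 0.829 in SASP mice. In these 3 pairs the groups did not overlap, each ratio being higher in every BBR mouse than in every SASP mouse. The exact two-sided permutation p was 0.10 for each, the smallest that 3 against 3 mice allow, and 0.20 after adjustment over the 6 pairs. The groups overlapped for Fzd2 over Fzd1, Fzd7 over Fzd1 and Lrp6 over Lrp5, with exact permutation p-values of 0.20, 0.80 and 0.30. The pairs were chosen by relatedness with the values already known.

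BBR mouse 3 was the lowest BBR mouse for 9 of the 10, where the same held for 61.8% of all tested genes, and SASP mouse 1 was the lowest SASP mouse for 8 of the 10, against 47.2%. Fzd1 was the exception in the BBR group, and Fzd5 and Fzd7 were the exceptions in the SASP group. The 10 receptors summed to 102, 103 and 87.3 FPKM in BBR mice and to 68.7, 75.5 and 75.3 FPKM in SASP mice.

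Marker genes of several cell types moved in the same direction as the receptors. Of all tested genes, 60.8% had a log2 fold change above 0 and 31.8% an unadjusted p under 0.05. Past the threshold were 3.82% as higher and 5.04% as lower in BBR mice. All 10 fibroblast and stromal markers were higher in BBR mice and 4 passed the threshold, and their summed level was 340 to 467 FPKM under BBR against 166 to 278 FPKM under SASP. All 9 tested endothelial markers were higher and 2 passed, with sums of 25.5 to 45.2 and 12.6 to 19.1 FPKM. All 12 smooth muscle markers were higher and 0 passed, although 10 had an unadjusted p under 0.05. Their sums were 3580 to 8241 FPKM in BBR mice, highest in BBR mouse 3, and 1010 to 2989 FPKM in SASP mice. The 6 tested enteric neuron and glia markers were higher with overlapping sums of 14.8 to 49.2 and 9.66 to 23.4 FPKM, and 0 of them passed (1 at an unadjusted p under 0.05). Leukocyte markers went the other way, lower in 8 of 8, with 0 past the threshold (5 at an unadjusted p under 0.05) and sums of 27.3 to 44.7 and 46.4 to 83.4 FPKM. Of 10 epithelial markers, 2 passed as higher in BBR mice and 1 as lower, the median log2 fold change was 0.03, and the sums were 5607 to 6165 and 5910 to 7063 FPKM. No marker of these lists was at 0 in all mice.

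**Figure D4:**
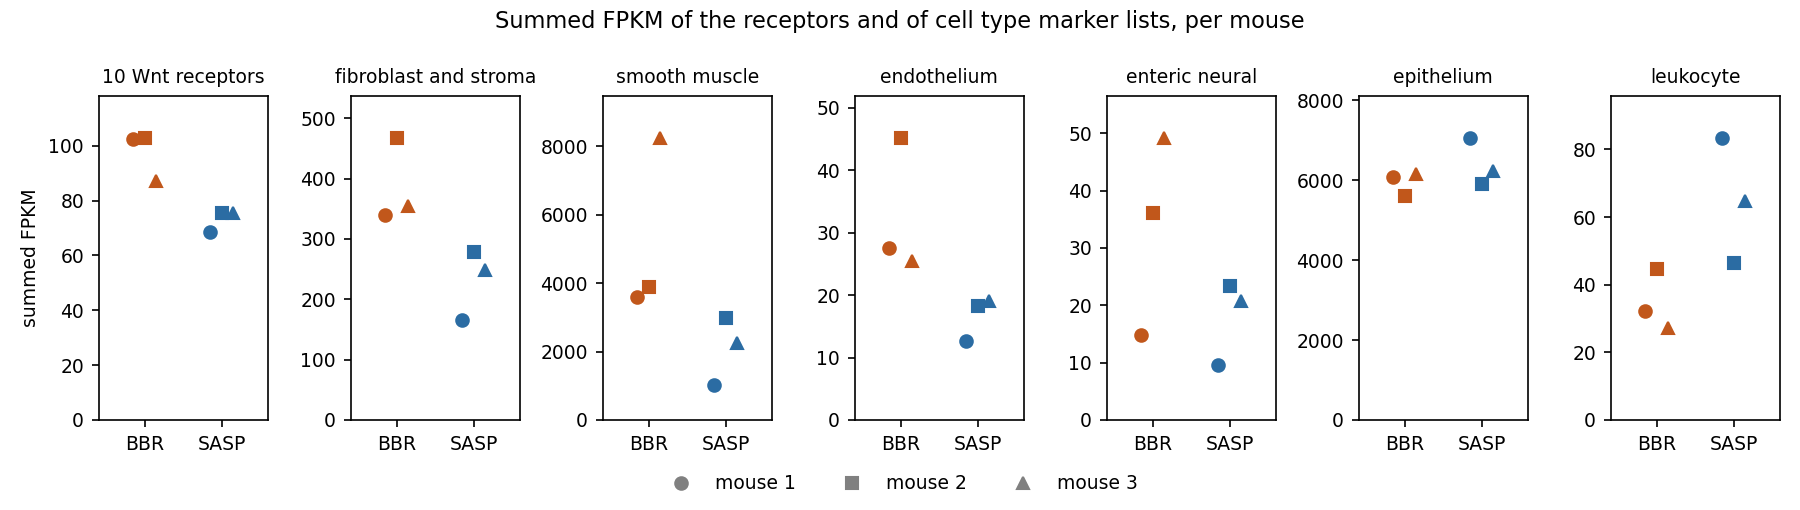
Summed FPKM of the 10 receptors and of the marker lists of 6 cell types in each mouse; each panel has its own axis from 0. The fibroblast, smooth muscle and endothelial sums lie higher in all BBR mice than in all SASP mice, as the receptor sum does, and the leukocyte sum lies lower.

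The receptors responded differently when a score of such markers (their mean z-score in each mouse) was added to the fit, each of these fits having fewer degrees of freedom. Once the smooth muscle score entered the fit, 9 of the 10 stayed above 0 with a median of 0.59, and Fzd1 turned to -0.031. With a fibroblast score, chosen after seeing the data, 8 stayed above 0 with a median of 0.24, while Fzd2 and Fzd7 turned to -0.095 and -0.13. Ror1 was at 0.73 and 0.47 in these fits and Fzd8 at 0.65 and 0.29. In both fits 0 of the 10 receptors passed the threshold in limma, where 18 and 0 of all tested genes did (0.149% and 0%). The sums of both marker lists were higher in all BBR than in all SASP mice. These fits therefore cannot tell cell content from the drug. The part of stromal, muscle or endothelial cell content in the receptor values was not tested.

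Leaving out BBR mouse 3 raised the count of receptors past the threshold from 1 to 7, the same 7 whose groups were separate, where 33.8% of all tested genes passed. Without this mouse, the log2 fold change was 1.08 for Fzd2, 0.85 for Fzd4, 0.66 for Fzd6, 0.83 for Fzd8, 0.82 for Ror1, 0.45 for Ryk and 0.40 for Lrp6, with limma adjusted p-values from 0.00995 to 0.0466. The other receptors missed the threshold there, with log2 fold changes of 0.29 for Fzd1, 0.20 for Fzd5 and 0.52 for Fzd7 (limma adjusted p = 0.232, 0.230 and 0.0864). Array quality weights likewise gave 7, with Fzd5 in place of Fzd2, where 59% of all tested genes passed. Leaving out BBR mouse 1 or 2 or SASP mouse 1, 2 or 3 left 0 receptors past the threshold, where 1.1%, 3.13%, 0.494%, 3.4% and 0.428% of all tested genes passed. Fzd8 and Ror1 passed with median-ratio scaling (14.2% of all tested genes), and Ryk joined them with quantile normalization (14.4%). Ror1 alone passed with a pseudocount of 0.1 (8.06%) and without the variance trend (8.13%). No receptor passed with a pseudocount of 0.01 (7.79% of all tested genes), with no filter (3.33%) or among genes with a mean of at least 5 FPKM (9.54%), which left 4 receptors. Fzd4, Fzd6, Fzd8, Ror1, Ryk and Lrp6 were higher in BBR mice in all alternatives that could test them. These fits draw on the same mice, so a constant sign over them is not repeated support.

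**Figure D5:**
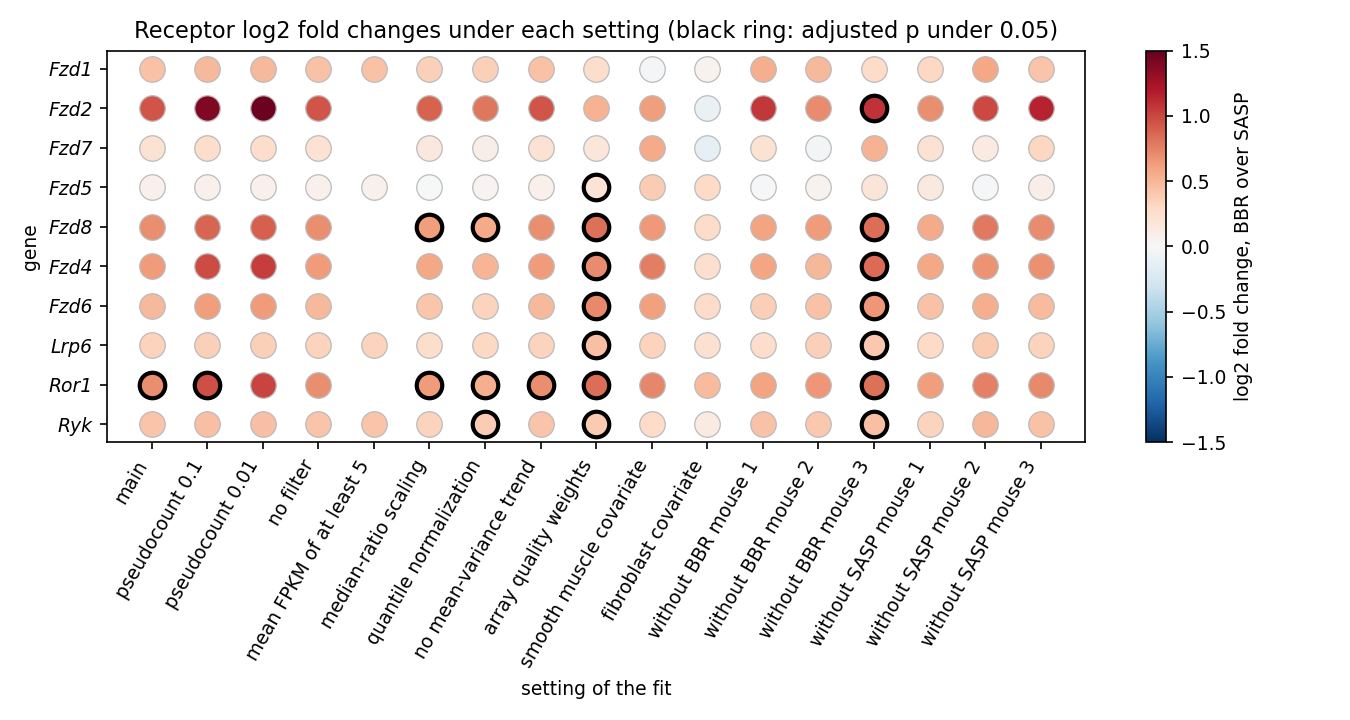
Log2 fold change of each receptor in each fit, by colour, with a black ring where the limma adjusted p passed 0.05 and no point where the filter removed the gene. Rings gather in the fits with array quality weights and without BBR mouse 3, with 7 receptors each.

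Estimated reads behind a receptor value ran from about 40 for Fzd2 in its lowest mouse to about 4200 for Lrp6 in its highest. Reads that fit several genes are a further limit, and were gauged from all stretches of 50 bases in the longest GENCODE M21 transcript of each receptor. Fzd1, Fzd2, Fzd7, Fzd8, Ror1, Ryk and Lrp6 shared 0% of these stretches with any other gene, the Fzd1, Fzd2 and Fzd7 paralogues included. Fzd5 shared 16.6% with Gm38058 and Fzd6 2.41% with Gm26704, which overlap them on the opposite strand, and Fzd4 shared 0.15%. Whether the reads were counted by strand is not given in the sources used here, so for Fzd5 and Fzd6 a part of the reads could belong to those transcripts.

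A further 10 Wnt receptors and co-receptors were listed, of which 6 passed the filter. All 6 had a log2 fold change above 0 with a median of 0.42, although Lrp5 turned to -0.0046 with median-ratio scaling, and 0 passed the threshold in limma (1 at an unadjusted p under 0.05). Of all tested genes, 60.8% were above 0, 8.86% passed and 31.8% had an unadjusted p under 0.05, with a median of 0.10. Adgra2, which with Reck recognises Wnt7 ligands on endothelium, was at 5.05, 7.54 and 4.90 FPKM in BBR mice and at 1.24, 3.13 and 3.22 FPKM in SASP mice. The log2 fold change of Adgra2 was 0.99 and its limma adjusted p was 0.0708. Lrp4, Reck, Ptk7 and Ror2 had log2 fold changes of 0.58, 0.56, 0.28 and 0.26, with overlapping groups. Without BBR mouse 3, Lrp4 and Adgra2 passed the threshold, at log2 fold changes of 0.95 and 1.08 (limma adjusted p = 0.00469 and 0.0433). In that fit 33.8% of all tested genes passed, and neither gene passed when any other single mouse was left out. Fzd3, Fzd9, Fzd10 and Musk were below the filter, at no more than 0.40, 0.10, 0.11 and 1.04 FPKM in any mouse.

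Genes that act on Frizzled, Lrp5 or Lrp6 at the cell surface, or on the way to it, were also listed. Of 16 symbols, 15 had a value and 9 could be tested, and 0 passed the threshold in limma, where 8.86% of all tested genes passed. An unadjusted p under 0.05 was reached by 2 of the 9, against 31.8% of all tested genes. The 2 were Kremen1 and Kremen2, receptors for the Lrp6 inhibitor Dickkopf, named after their values were seen, with log2 fold changes of 0.72 and 0.63 (limma adjusted p = 0.0590 for both). All BBR values of both exceeded all SASP values, as they did for 21.3% of all tested genes. The groups of Atp6ap2 were separate as well (log2 fold change 0.18, limma adjusted p = 0.230). Both Kremen genes passed without BBR mouse 3, at 0.87 and 0.69 (limma adjusted p = 0.0113 and 0.0234), where 33.8% of all tested genes passed. Neither Kremen gene passed when any other single mouse was left out. Rnf43 and Znrf3, the ubiquitin ligases that remove Frizzled from the surface, had log2 fold changes of -0.14 and 0.24 with overlapping groups. Tspan12, which helps Fzd4 respond to Norrin, had a log2 fold change of 0.27 with overlapping groups, while Ndp, the Norrin gene, was at most at 0.06 FPKM in any mouse. Lgr5, a stem cell receptor for R-spondins, was at most at 0.52 FPKM and was not tested.

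Among the 19 listed Wnt ligands, 15 had a value and 3 were tested, and 0 of them passed in limma. Of the tested ligands 1, Wnt4, had an unadjusted p under 0.05, a level that 31.8% of all tested genes reached. Wnt4 passed without BBR mouse 3, where 33.8% of all tested genes did, but not without any other single mouse. The other ligands with a value were below the filter. Of these, Wnt2 (0.23 to 0.35 and 0.05 to 0.1 FPKM), Wnt6 (0.28 to 0.64 and 0.21 to 0.27) and Wnt11 (0.22 to 0.38 and 0.03 to 0.14) were higher in all BBR than in all SASP mice. Such separation held for 21.3% of all tested genes, and the reads behind values this low were not estimated. The groups of the remaining ligands below the filter overlapped. The Ror1 and Ryk ligand Wnt5a was at 1.77, 2.36 and 2.18 FPKM in BBR mice and 1.27, 1.44 and 1.69 FPKM in SASP mice, without overlap (log2 fold change 0.33, limma adjusted p = 0.167). Below the receptors, 1 of 17 genes of the beta-catenin branch passed the threshold. This was Dvl1, a Dishevelled gene that relays the signal of Frizzled, with a log2 fold change of 0.52 (limma adjusted p = 0.0483). Ctnnb1, which encodes beta-catenin, was at 272 ± 1.57 and 268 ± 8.12 FPKM (SD, n = 3 each), and its log2 fold change was 0.02 (95% interval -0.21 to 0.25). In the planar cell polarity and calcium branches 1 of 15 tested genes passed, Nfatc4, a calcium-regulated transcription factor gene, with a log2 fold change of 0.63 (limma adjusted p = 0.0482). Dvl1 and Nfatc4 each lost the call when any single mouse other than BBR mouse 3 was left out. They also lost it with a pseudocount of 0.01, with no filter and with either covariate. Dvl1 further missed without the variance trend, and Nfatc4 with a pseudocount of 0.1. The shares past the threshold in these 2 branch lists, 5.88% and 6.67%, lay below the 8.86% of all tested genes. The medians of these lists were 0.12 and 0.17, nearer to that of all tested genes than the median of the receptors.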

How the data were processed

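RNA of colorectal tissue was measured in 3 BBR and 3 SASP colitis mice, grouped by the treatment label. Mouse numbers follow accession order and pair nothing. The authors deposited FPKM values per gene and mouse, rounded in the table. Per the study's methods and the submitters' processing notes, reads were filtered with SOAPnuke, aligned with Bowtie2 2.2.5 and quantified with RSEM 1.2.12, and the notes name mm9. The annotation and read totals are not given in the sources used here. The methods describe rRNA depletion and DNA nanoball sequencing, and the part on RNA sequencing does not list SASP mice, while the labels name an Illumina kit instead.

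Genes with at least 1 FPKM in at least 3 of 6 mice were tested on log2(FPKM + 1), which understates changes of low genes, with limma 3.58.1 in R 4.3.3. The linear model had group as its term, variances were moderated along a mean-variance trend, and two-sided p-values were adjusted by Benjamini-Hochberg with a threshold of 0.05. The fitting code was tested on simulated data with larger changes than those of the receptors. That test does not show how well changes of their size are found. The members and gene lists were chosen with earlier results of these data known, so no list was given a test. All receptors were named, as were all tested genes of the other receptor list, and from the other pathway lists the genes past the threshold. Marker lists were given by counts and sums. Surface partners, Wnt2, Wnt4, Wnt5a, Wnt6, Wnt11 and Ctnnb1 were named outside that rule, after their values were seen. Marker scores were mean z-scores over each list. Depth was estimated from genes above 0 in a single mouse with transcripts under 1500 bases, taking the median as 1 read, and is approximate. Other pseudocounts, filters, scalings, sample weights, covariates and left-out mice were tried. Paralogue ratios were compared by exact permutation tests (scipy 1.17.1), which cannot give a two-sided p below 0.10. P-values concern the difference between the 2 groups of these mice. In limma that difference is set against their spread, moderated across genes.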

Additional observations from a re-analysis of the deposited data

How the results depend on the processing

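No paired analysis was possible because no number in the labels is shared by the groups. Of the 10 receptors, 1 passed the threshold as reported, 0 with a pseudocount of 0.01, with no filter, with a mean of at least 5 FPKM (4 receptors left) or with either covariate, 2 with median-ratio scaling, 3 with quantile normalization and 7 with array quality weights. Without single mice it was 0 to 7, highest without BBR mouse 3. Over all genes, 1069 passed as reported, 608 with no filter, 1713 with median-ratio scaling, 1737 with quantile normalization, 7126 with array quality weights, 18 with the smooth muscle and 0 with the fibroblast covariate, and 51 to 4018 without single mice. The fibroblast covariate was chosen after seeing the data. Other receptors gave 2 with array quality weights and 0 to 2 without single mice. Surface partners gave 1 with no filter, 2 with either other scaling, 6 with array quality weights and 0 to 3 without single mice. Wnt ligands gave 1 with no filter, median-ratio scaling, no variance trend or array quality weights, and 0 to 1 without single mice. The beta-catenin branch went from 1 to 0 with a pseudocount of 0.01, no filter, no variance trend or either covariate, 2 with median-ratio scaling, 10 with array quality weights and 0 to 6 without single mice. The polarity and calcium branches went from 1 to 0 with either smaller pseudocount, no filter, the higher mean or either covariate, 8 with array quality weights and 0 to 4 without single mice.

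Direction turned for Fzd5 with median-ratio scaling (-0.011) and without BBR mouse 1 or SASP mouse 2 (-0.017 to 0.20 without single mice), for Fzd7 without BBR mouse 2 (-0.046 to 0.52) and with the fibroblast covariate (-0.13), for Fzd1 with the smooth muscle covariate (-0.031) and for Fzd2 with the fibroblast covariate (-0.095). Among the other receptors it turned for Lrp5 with median-ratio scaling (-0.0046), without BBR mouse 2 (-0.061 to 0.26 without single mice) and with the fibroblast covariate (-0.38), and for Ror2 with array quality weights (-0.0054) and the fibroblast covariate (-0.36). It also turned for Reck with both covariates (-0.015 with smooth muscle, -0.39 with fibroblast), and for Ptk7 (-0.345) and Adgra2 (-0.12) with the fibroblast covariate. The cause of these changes was not tested. The estimated depth limits Fzd2 and Fzd4 most among the receptors.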

Other observations

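The tested genes outside the receptors whose log2(FPKM + 1) followed the mean standardised profile of the 10 receptors most closely over the 6 mice were Pdxk, Fbrsl1 and Rftn2, with Pearson correlations of 0.999, 0.997 and 0.997. The points are 6 mice in 2 groups, so the group difference and the low values of BBR mouse 3 and SASP mouse 1 shape these correlations. Pdxk, the pyridoxal kinase gene, was at 9.50, 11.0 and 5.37 FPKM in BBR mice and at 2.50, 3.79 and 3.81 FPKM in SASP mice. The log2 fold change of Pdxk was 1.10 (limma adjusted p = 0.0480). Rftn2, a raftlin family gene, was at 4.73, 5.40 and 2.40 FPKM in BBR mice and at 0.82, 1.57 and 1.75 FPKM in SASP mice, with a limma adjusted p of 0.0573. Fbrsl1 had a log2 fold change of 0.33 (limma adjusted p = 0.130).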
